A study of Mus musculus with 12 samples.

Results

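The genes described here are 34 genes of B cells and myeloid cells, followed through 12 RNA-seq libraries of sorted OT-I cells. They were chosen by symbol, as known genes of B cells, antigen-presenting cells and phagocytes, with earlier results of these data known. All 34 were found among the 55421 genes of the count table. OT-I cells are CD8 T cells with a transgenic receptor for a peptide of ovalbumin, so none of the 34 genes marks the sorted cell, and their level in each library was taken as a measure of RNA of other cells in the sort. Several of the 34 limit this measure, as given with the sums and levels below: *Ighm*, *Plcg2* and *Ralgps2*, and also *Cd22*, *Cxcr5*, *Irf5* and *Apoe*. The cells were wild-type (WT) or knockout (KO) for Rroid2, were transferred into mice, and were recovered by flow sorting from the spleen after infection with Listeria monocytogenes expressing ovalbumin. Infection, transfer and the OT-I receptor are shared by all groups. There were 6 groups of 2 libraries: WT SLEC (short-lived effector cells) on day 7, KO SLEC on day 7, WT SLEC on day 14, KO SLEC on day 14, WT MPEC (memory precursor effector cells) on day 14 and KO MPEC on day 14. Neither the sorting gates nor the age and strain of the mice, nor what the hosts kept of their own lymphocytes, could be read from the labels.

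B cells read antigen through a surface immunoglobulin, whose heavy chain (*Ighm*, *Ighd*) and light chain (*Igkc*) signal through the paired chains CD79A and CD79B. Their identity is held by the transcription factors EBF1 and PAX5, and, unlike mouse T cells, they carry MHC class II molecules with the invariant chain CD74 to present antigen to helper T cells. Macrophages and monocytes depend on the factor PU.1 (*Spi1*) and the growth factor receptor CSF1R, and the red pulp and follicles of the spleen place both kinds of cell beside T cells.

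Total counts ran from 7603551 to 14026594 per library, and levels are given as CPM, the depth-scaled count, on the effective library size after TMM scaling. No row of the table bore the symbol Rroid2, so the knockout was not checked from counts here. The labelled cell type was checked on 14 T cell genes, with sums of 7523 and 6498 CPM in WT SLEC day 14 against 7266 to 9301 CPM in the other 10 libraries; *Cd8a*, the CD8 alpha chain, was at 721.4 CPM or more in every library and *Cd4* at 1.057 CPM or less. Whether both libraries of a group stem from different mice is not stated, and p-values therefore measure only the spread between these libraries, which may be technical. The libraries of WT SLEC day 14 stood apart from the rest in the 34 genes, and so, to a lesser degree, did replicate 1 of WT MPEC. Results that rest on them are therefore given library by library.

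The regulatory sequence of a few of the genes is shown first, as a description that was not tied to their levels. RefSeq promoter windows (GRCm38.p6, 250 bases before to 50 after a start site) were matched by symbol for 20 of the 34 genes, with 27 entries. The windows below read 5′ to 3′ on the strand of the gene, and the capitals mark the motif.
H2-Aa: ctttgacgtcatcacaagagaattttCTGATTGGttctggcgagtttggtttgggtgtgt
H2-Eb1: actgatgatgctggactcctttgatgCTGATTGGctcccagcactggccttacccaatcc
Fcer2a: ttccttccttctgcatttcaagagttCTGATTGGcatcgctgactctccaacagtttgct
Cd22: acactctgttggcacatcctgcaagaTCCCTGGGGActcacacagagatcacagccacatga
Fcrl1: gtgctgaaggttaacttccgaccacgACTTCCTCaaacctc

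The first 3 hold the Y box of MHC class II promoters, CTGATTGG. The windows lie at chr17:34287841-34287900 (minus strand) for *H2-Aa*, at chr17:34305779-34305838 (plus strand) for *H2-Eb1* and at chr8:3694319-3694378 (minus strand) for *Fcer2a*. In *H2-Aa* and *H2-Eb1*, which encode an alpha and a beta chain of MHC class II, the motif begins 51 and 62 bases before the start. In *Fcer2a*, the low-affinity IgE receptor CD23, it begins 178 bases before the start. The fourth window (chr7:30879042-30879103, minus strand) holds the EBF1 palindrome (TCCC, any pair of bases, GGGA), 49 bases before a RefSeq start, in *Cd22*, an inhibitory receptor of B cells. This window lies inside the gene as GENCODE places it (chr7:30865402-30880342), so that start is not the gene's annotated 5′ end. The fifth (chr3:87376346-87376386, plus strand) holds the PU.1 core GAGGAAGT, read on the opposite strand and 15 bases before the start, in *Fcrl1*, an Fc receptor-like protein of B cells. All motifs were searched on both strands, and none of these windows held a pair of different motifs. Of all 32851 promoter windows of the same length, 4.1% held the Y box, 0.904% the EBF1 palindrome and 3.2% the PU.1 core. The octamer ATGCAAAT, bound by Oct factors that work with the coactivator of *Pou2af1*, was in 1.74% of all windows and in 0 of the 27. A match is a description of these letters in these windows and was not tied to any binding measurement.

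The 34 genes were highest in WT SLEC day 14. Their summed level there was 1173 CPM for replicate 1 and 3805 CPM for replicate 2. In the other 10 libraries it lay between 76.68 CPM (KO SLEC day 14 replicate 2) and 560.7 CPM (WT MPEC replicate 1), with a median of 175.7 CPM. In KO MPEC replicate 1, *Ighm* had 916 counts, *Ralgps2* 199, *Cd22* 165 and *Plcg2* 96, against 2 of *Cd79a* and 0 of *Pax5*. *Cxcr5* had 60 counts there, *Irf5* 41 and *Apoe* 38. The sum in such libraries was carried largely by genes that did not follow *Cd79a*, and the source of their RNA was not tested. Both WT SLEC day 14 libraries were above all other 10 for 33 of the 34 genes, against 4.11% of the 14460 genes tested. The exception was *Ralgps2*, a guanine nucleotide exchange factor, which had 26.42 CPM in replicate 1 of WT SLEC day 14 but 28.1 CPM in replicate 1 of WT MPEC. The 33 include *Cd40*, *Fcrl5* and *Siglecg*, which were among the genes tested only because WT SLEC day 14 was high. Since the 34 genes were chosen with earlier results of these data known, such shares describe the set and are no independent test. The same limit holds for the shares of called genes below. Even in the highest library the 34 genes took 0.438% of all counts. In bulk RNA, more cells of a type and more RNA per cell cannot be told apart, and the cells that the transcripts came from were not identified.

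**Figure D1:**
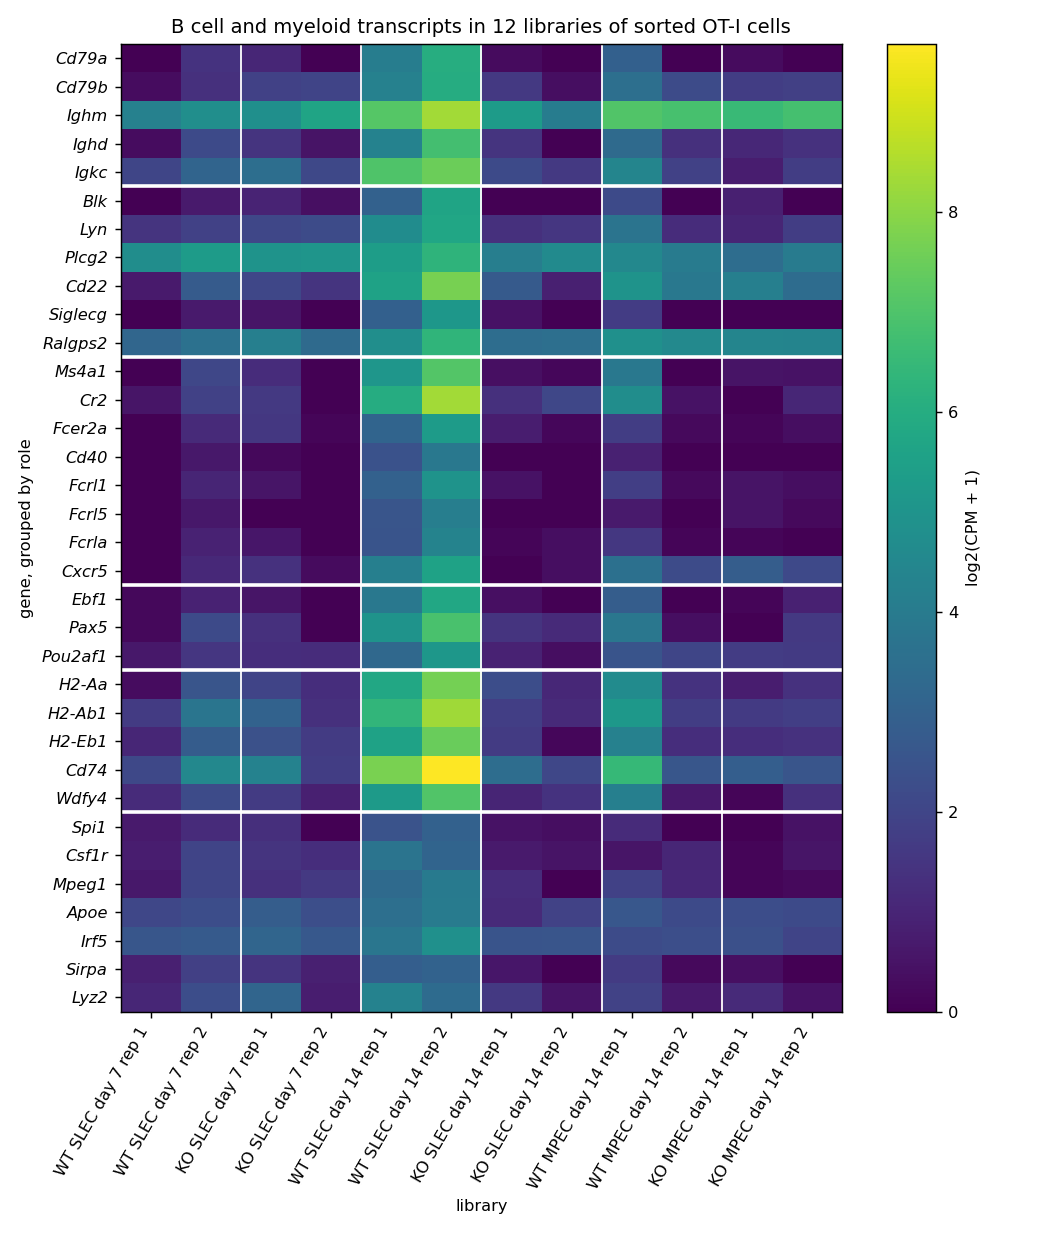
Heat map of the level of each of the 34 genes, as log2(CPM + 1), in each of the 12 libraries, with genes grouped by role (white horizontal lines) and libraries by group (white vertical lines). The WT SLEC day 14 columns are the brightest for 33 of 34 genes, and WT MPEC day 14 replicate 1 is the highest of the other 10 libraries for 26.

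The genes of the receptor itself were near 0 in most libraries, with *Ighm* as the exception. *Cd79a* (ENSMUSG00000003379.7, chr7:24897381-24902197, plus strand), the alpha chain of the signalling pair, was at 16.34 and 64.61 CPM in WT SLEC day 14 and at 6.722 CPM in WT MPEC replicate 1. It had 0 counts in 5 libraries: WT SLEC day 7 replicate 1, KO SLEC day 7 replicate 2, KO SLEC day 14 replicate 2, WT MPEC replicate 2 and KO MPEC replicate 2. In the 4 remaining libraries it did not pass 1.689 CPM. *Cd79b*, its partner, was at 17.96 and 61.95 CPM in WT SLEC day 14, at 10.65 CPM in WT MPEC replicate 1 and at 0.2384 to 3.675 CPM in the other 9. Unlike *Cd79a*, it was at 3.675 CPM in WT MPEC replicate 2 and at 2.361 and 2.589 CPM in KO MPEC, libraries where *Cd79a* was at or near 0.

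*Ighm* (ENSMUSG00000076617.9, chr12:113418558-113422730, minus strand), the constant region of the IgM heavy chain, followed another pattern. It was at 137.6 and 325 CPM in WT SLEC day 14, at 131 and 116.8 CPM in WT MPEC and at 94.04 and 112.2 CPM in KO MPEC. SLEC had less on day 7, at 17.96 and 26.42 CPM in WT and 27.45 and 49.49 CPM in KO, and KO SLEC day 14 had 38.95 and 15.67 CPM. All 4 MPEC libraries were thus above all 6 SLEC libraries outside WT SLEC day 14, and WT SLEC day 14 replicate 1 was above WT MPEC replicate 1 by only 137.6 against 131 CPM. *Ighd*, the IgD heavy chain made by naive B cells, did not do so: it was at 18.33 and 108.9 CPM in WT SLEC day 14, 9.215 CPM in WT MPEC replicate 1 and 3.532 CPM or less in the other 9. *Igkc*, the kappa light chain, was at 127.3 and 181 CPM in WT SLEC day 14, at 19.94 CPM in WT MPEC replicate 1 and at 0.7186 to 10.26 CPM in the other 9.

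Immunoglobulin variable segments, which are joined to these constant regions by rearrangement, were counted apart from the 34 genes. Their 348 rows had a sum of 68.6 and 97.26 CPM in WT SLEC day 14 and of at most 7.629 CPM elsewhere, the highest again in WT MPEC replicate 1. At least 1 count was found for 104 and 168 segments in the WT SLEC day 14 libraries and for 35 in WT MPEC replicate 1. WT MPEC replicate 2 and KO MPEC, with about as much *Ighm* as WT MPEC replicate 1, did not exceed that library in variable segments.

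Of the 6 signalling genes, *Blk*, *Siglecg* and *Lyn* were low outside WT SLEC day 14 and WT MPEC replicate 1, and the other three were not. *Blk*, a Src family kinase of B cells, was at 7.066 and 49.36 CPM in WT SLEC day 14, at 3.55 CPM in WT MPEC replicate 1 and at 0 counts in 5 libraries, both KO SLEC day 14 libraries among them. *Siglecg*, an inhibitory lectin of B cells, was at 6.772 and 33.98 CPM in WT SLEC day 14, 2.266 CPM in WT MPEC replicate 1 and 0 counts in 6 libraries. *Lyn*, the kinase that phosphorylates the CD79 chains, was at 25.1 and 52.21 CPM in WT SLEC day 14, 12.08 CPM in WT MPEC replicate 1 and 1.027 to 3.673 CPM in the other 9. *Cd22*, shown above with its EBF1 palindrome, was at 46.96 and 207.2 CPM in WT SLEC day 14 and at 30.29 and 13.85 CPM in WT MPEC. KO MPEC had 16.94 and 9.683 CPM of *Cd22*, more than the 0.6358 to 5.913 CPM of the 6 SLEC libraries of the other groups. *Plcg2*, the phospholipase downstream of the receptor, was at 41.14 and 76.57 CPM in WT SLEC day 14, but at 9.856 to 38.32 CPM in all other libraries, with WT SLEC day 7 replicate 2 above WT MPEC replicate 1 (22.05 CPM). *Ralgps2* was at 8.265 to 28.1 CPM outside WT SLEC day 14, where it was at 26.42 and 78.85 CPM. *Plcg2* and *Ralgps2* thus had 8.265 CPM or more in every library.

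The 8 surface receptors together ran from near 0 to some of the highest levels of the set: their sum was 142.1 and 626.6 CPM in WT SLEC day 14, 58.84 CPM in WT MPEC replicate 1 and as little as 0.3061 CPM in KO SLEC day 7 replicate 2. *Cr2*, complement receptor 2 (CD21), was at 62.78 and 325.9 CPM in WT SLEC day 14, 25.91 CPM in WT MPEC replicate 1 and 3.161 CPM or less in the other 9. *Ms4a1*, which encodes CD20, was at 33.27 and 135.9 CPM, at 13.75 CPM and at 3.225 CPM or less in the same order. The remaining members were lower but followed the same order of libraries. *Fcer2a* was at 7.655 and 38.29 CPM in WT SLEC day 14, *Fcrl1* at 6.992 and 30.06 CPM, and *Fcrla*, an intracellular Fc receptor-like protein, at 4.784 and 19.17 CPM, and none of the 3 passed 2.492 CPM in any other library. *Cd40*, the receptor for T cell help, was at 4.49 and 13.8 CPM and *Fcrl5*, another Fc receptor-like protein, at 4.931 and 16.83 CPM. *Cd40* had 0 counts in 7 libraries and *Fcrl5* in 6. *Cxcr5*, the follicle-homing chemokine receptor of B cells and some T cells, was at 17.15 and 46.64 CPM in WT SLEC day 14 and 10.95 CPM in WT MPEC replicate 1. It was also at 3.58 CPM in WT MPEC replicate 2 and 6.16 and 3.451 CPM in KO MPEC, above the 0 to 1.636 CPM of the 6 SLEC libraries outside WT SLEC day 14.

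The 3 transcription genes were among the clearest of the set. *Ebf1* (ENSMUSG00000057098.14, chr11:44617317-45008091, plus strand) was at 13.62 and 54.68 CPM in WT SLEC day 14, at 6.269 CPM in WT MPEC replicate 1 and at 0.9215 CPM or less in the other 9. *Pax5* was at 30.4 and 117.6 CPM, at 13.37 CPM and at 3.532 CPM or less in the same order. *Pou2af1*, a coactivator of Oct factors at immunoglobulin promoters, was at 8.685 and 34.05 CPM, at 4.758 CPM and at 0.2748 to 3.015 CPM.

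MHC class II and antigen presentation made up the largest sum, 433 and 1644 CPM in WT SLEC day 14 and 183.5 CPM in WT MPEC replicate 1. *Cd74* alone was at 211.6 and 818.4 CPM in WT SLEC day 14. It was at 89.58 CPM in WT MPEC replicate 1, at 21.89 and 18.45 CPM in WT SLEC day 7 replicate 2 and KO SLEC day 7 replicate 1, and at 2.347 to 9.916 CPM in the other 7. *H2-Ab1*, a class II beta chain, was at 81.55 and 315 CPM in WT SLEC day 14, 34.67 CPM in WT MPEC replicate 1 and 1.237 to 12.44 CPM in the other 9. *H2-Aa* was at 54.83 and 202.3 CPM and *H2-Eb1* at 47.18 and 176.4 CPM in WT SLEC day 14. *Wdfy4*, a protein needed for cross-presentation, was at 37.83 and 131.6 CPM there and at 17.3 CPM in WT MPEC replicate 1. The 5 genes kept the same order of the 3 highest libraries. Per kilobase of exon, *Cd74* was the highest of the 34 genes in WT SLEC day 14 replicate 2, at 487.4 CPM per kilobase, followed by *Igkc* at 340.3, *Ighm* at 172.3 and *H2-Ab1* at 122.6. In replicate 1 the order of the first pair was turned, with *Igkc* at 239.4 and *Cd74* at 126 CPM per kilobase.

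The 7 myeloid genes were lower and less uneven. Their sum was 74.49 and 88.97 CPM in WT SLEC day 14 and, in the other 10 libraries, 7.957 CPM (KO MPEC replicate 2) up to 28.41 CPM (KO SLEC day 7 replicate 1). Here the highest of the other libraries was not WT MPEC replicate 1. *Csf1r* was at 12.22 and 7.594 CPM in WT SLEC day 14, at 2.918 CPM in WT SLEC day 7 replicate 2 and at 0.4532 CPM in WT MPEC replicate 1. *Lyz2*, lysozyme of phagocytes, was at 18.7 and 9.302 CPM in WT SLEC day 14 and at 7.884 CPM in KO SLEC day 7 replicate 1. *Irf5*, an interferon regulatory factor, was at 12.81 and 27.72 CPM in WT SLEC day 14 and at 2.972 to 7.81 CPM in the other 10. *Apoe*, the lipid carrier of macrophages, was at 10.67 and 15.5 CPM there and at 1.214 to 6.248 CPM elsewhere. Both *Irf5* and *Apoe* thus had counts in every library, and in several low libraries they held most of the myeloid counts, as given below. *Mpeg1*, the pore-forming perforin-2 of phagocytes, was at 9.127 and 14.62 CPM, *Spi1* at 4.637 and 7.024 CPM and *Sirpa*, an inhibitory receptor of myeloid cells, at 6.33 and 7.214 CPM in WT SLEC day 14, and none of these 3 passed 3.072 CPM in the other 10.

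**Figure D2:**
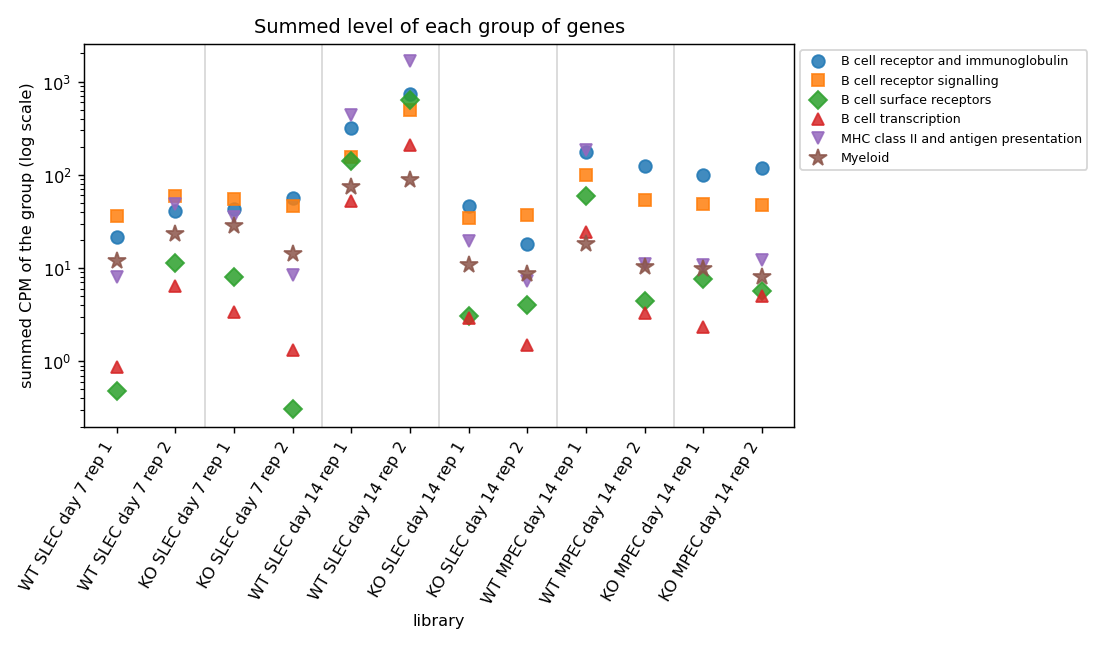
Summed CPM of the genes of each role (log axis) in each of the 12 libraries, 1 point per role and library. The MHC class II genes reach 433 and 1644 CPM in WT SLEC day 14 and 183.5 CPM in WT MPEC replicate 1, while the myeloid genes stay between 7.957 and 88.97 CPM.

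The 2 libraries of WT SLEC day 14 differed from each other in a way that followed the roles. Replicate 2 was above replicate 1 for 32 of the 34 genes. That library also had the most genes detected of the 12, 25372 against 16088 to 21214, the highest TMM factor (1.153) and the smallest share of counts in tested genes (99.744%), and WT SLEC day 7 replicate 2, the higher of its pair, came next with 21214 genes. The part of this in the levels of the 34 genes was not tested. The ratio of replicate 2 to replicate 1 had a median of 3.87 over the 27 genes outside the myeloid group, from 1.42 for *Igkc* to 6.99 for *Blk*, against a median of 0.989 over all tested genes. It was narrow for the transcription genes, 3.87 to 4.01, and for the MHC class II genes, 3.48 to 3.87. The myeloid genes had a median ratio of 1.45, from 0.498 for *Lyz2* to 2.16 for *Irf5*. *Csf1r* and *Lyz2* were lower in replicate 2, with counting intervals that did not reach 1: *Csf1r* had 166 and 120 counts, a ratio of 0.6215 (95% interval 0.4873 to 0.7908), and *Lyz2* had 254 and 147 counts, a ratio of 0.4976 (0.4033 to 0.612). For comparison *Cd79a* had 222 and 1021 counts, a ratio of 3.954 (3.417 to 4.593). These exact (Clopper-Pearson) binomial intervals cover counting error only, since reads of PCR copies are counted more than once where no molecular identifiers are used.

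Within the B cell genes the ratio was uneven as well. *Blk* at 6.986 (5.645 to 8.728), *Ighd* at 5.942 (5.2 to 6.814) and *Cr2* at 5.191 (4.827 to 5.587) were above the range of the transcription genes. *Ighm* at 2.363 (2.24 to 2.492), *Lyn* at 2.08 (1.831 to 2.367), *Plcg2* at 1.861 (1.682 to 2.061) and *Igkc* at 1.422 (1.339 to 1.51) were below it. Other lists of cell type genes gave ratios in the opposite direction. Plasma cell genes, which include the switched heavy chains and the joining chain, had a sum of 69.11 CPM in replicate 1 and 26.39 CPM in replicate 2, against at most 5.359 CPM in the other 10 libraries. *Ighg2c*, a switched IgG heavy chain, was at 31.94 and 13.86 CPM and *Jchain* at 13.98 and 2.658 CPM. Neutrophil genes summed to 73.24 and 8.163 CPM, against at most 7.931 CPM elsewhere. The part of these other cells in the values of the 34 genes was not tested.

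**Figure D3:**
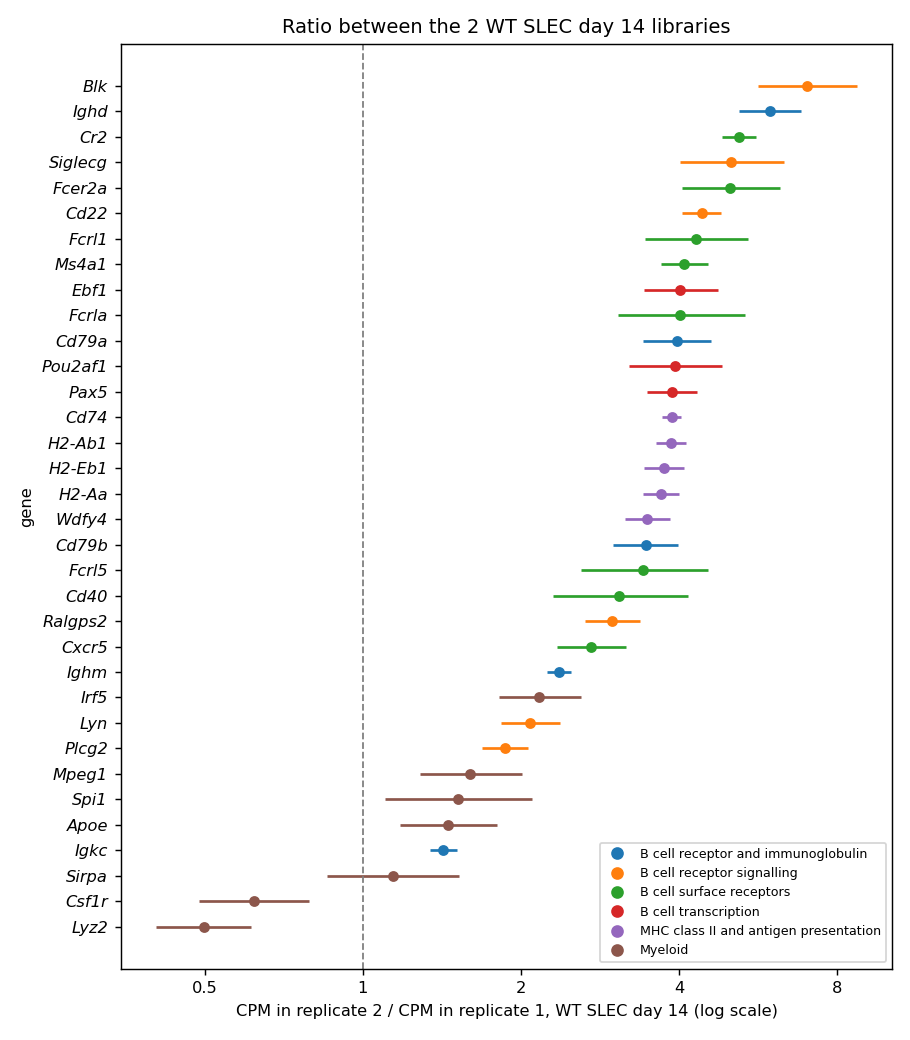
Ratio of the CPM in replicate 2 to that in replicate 1 of WT SLEC day 14 (log axis) for each of the 34 genes, coloured by role, with the exact 95% counting interval as a bar. B cell and MHC class II genes lie between 1.42 and 6.99, and the myeloid genes between 0.498 and 2.16.

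Other WT groups were uneven as well. In WT SLEC day 7, replicate 2 was above replicate 1 for all 34 genes, with *Cd74* at 42 and 285 counts and *Pax5* at 2 and 46. In WT MPEC, replicate 1 was above replicate 2 for 32 genes, with *Cd74* at 1186 and 53 counts, *Cr2* at 343 and 4 and *Pax5* at 177 and 3. *Ighm* in the same pair had 1735 and 1240 counts. KO SLEC day 7 had 28 genes higher in replicate 1 and KO SLEC day 14 had 22. KO MPEC was more even, with 15 genes higher in replicate 1 and *Cd74* at 63 and 50 counts, a ratio of 0.7411 (0.5008 to 1.092). Counts of 0 were common in the low libraries: 11 of the 34 genes had none in KO SLEC day 7 replicate 2, 10 in WT SLEC day 7 replicate 1 and 10 in KO SLEC day 14 replicate 2. No gene of the set had 0 counts in either WT SLEC day 14 library, in WT MPEC replicate 1 or in WT SLEC day 7 replicate 2.

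The counts were next set against the sum of *Cd79a*, *Ms4a1* and *Pax5*, a reference chosen after its values were seen. This sum was 1087 and 5028 counts in WT SLEC day 14, 448 in WT MPEC replicate 1 and 110 in WT SLEC day 7 replicate 2, and 53 or fewer in the other 8 libraries. Over those 4 libraries *Cd74* had 264.5, 257.2, 264.7 and 259.1 counts per 100 reference counts in the same order. *H2-Aa* had 68.54, 63.58, 71.43 and 58.18, and *Wdfy4* had 47.29, 41.35, 51.12 and 42.73. In all, 8 of the 34 genes stayed within a range of 1.5-fold over the 4 libraries, the 3 reference genes among them, and 15 within 2-fold. Over the 3 day 14 libraries 14 stayed within 1.5-fold and 20 within 2-fold. All of these counts include the 3 reference genes, which are part of the sum they are set against.

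Other members did not keep a constant ratio to the reference. *Ighm* had 171.9, 102.1, 387.3 and 312.7 counts per 100 reference counts, highest in WT MPEC replicate 1. *Ralgps2* had 33.03, 24.78, 83.04 and 132.7, and *Plcg2* 51.43, 24.07, 65.18 and 453.6. The widest was *Csf1r*, with 15.27, 2.387, 1.339 and 34.55, a 25.8-fold range. The 7 myeloid genes together had 111.9 and 42.93 counts per 1000 counts of the 22 B cell genes (the 4 B cell roles, without MHC class II) in WT SLEC day 14. This share was 45.08 to 62.58 in the 4 MPEC libraries, 136.6 to 259 in the 4 day 7 libraries and 123.8 and 142.5 in KO SLEC day 14. *Ighm* alone held 916 of the 1534 counts of the 22 genes in KO MPEC replicate 1 and 1170 of 1841 in replicate 2. Of the 96 and 83 myeloid counts of those 2 libraries, *Irf5* had 41 and 31 and *Apoe* 38 and 37. In KO SLEC day 14 replicate 2, *Irf5* had 35 and *Apoe* 20 of the 63 myeloid counts. In such libraries the share is therefore not a ratio of myeloid to B cell RNA.

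**Figure D4:**
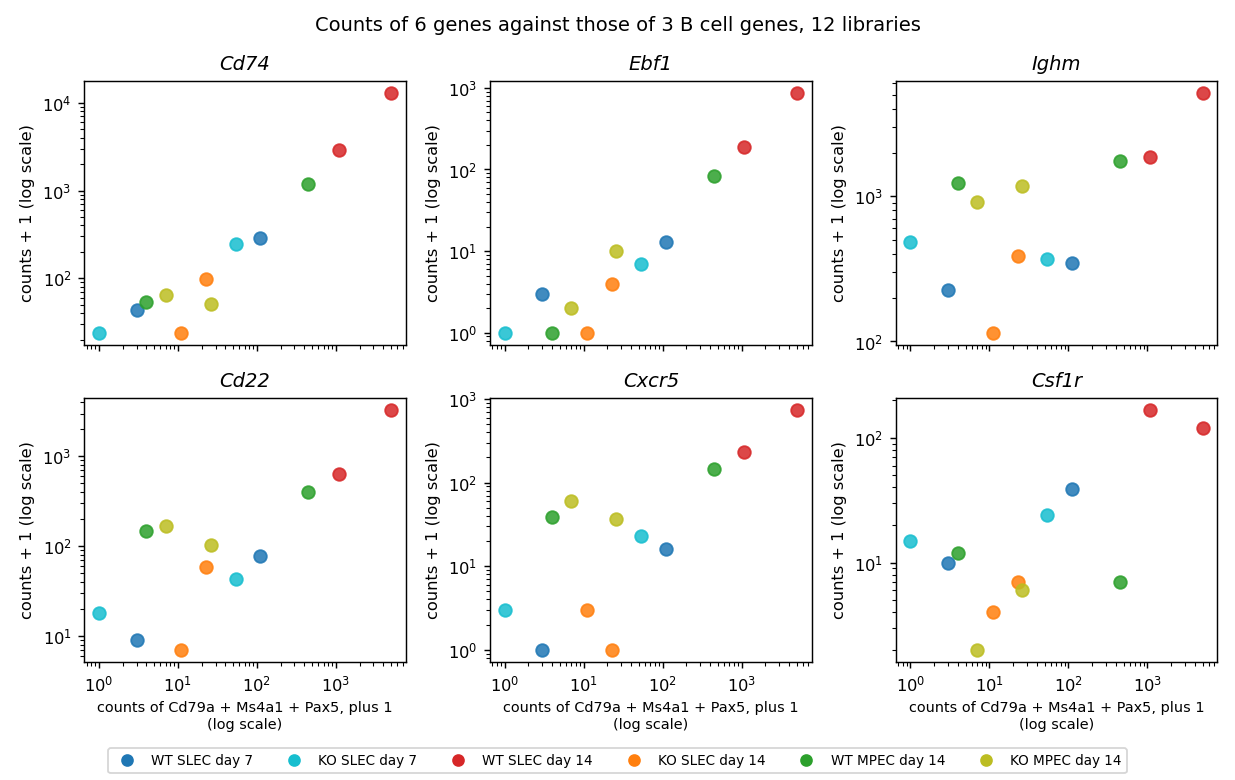
Counts + 1 of 6 genes against the summed counts + 1 of *Cd79a*, *Ms4a1* and *Pax5*, both on log axes, with 1 point per library coloured by group. *Cd74* and *Ebf1* follow the reference in the high libraries, *Ighm*, *Cd22* and *Cxcr5* sit high in MPEC libraries with few reference counts, and *Csf1r* has 166 and 120 counts in the WT SLEC day 14 libraries against 6 in WT MPEC replicate 1.

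In the annotation 7 of the 34 genes share exon bases with another gene, 3 of them with a gene on the opposite strand that had counts in every library. It gives *Irf5* 411 bases in common with *Tnpo3* (725 to 1587 counts per library), *Cxcr5* 110 with *Bcl9l* (2526 to 5492 counts) and *Csf1r* 873 with *Hmgxb3* (349 to 802 counts). The kit keeps strand, but no source says whether the counting used it, and without it the reads of such pairs cannot be told apart. *Lyz2* has a near-identical neighbour, *Lyz1*, and its counts are uncertain to that degree. *Ighm*, *Plcg2* and *Ralgps2*, each at 8.265 CPM or more in every library, share no exon bases with another annotated gene. *Cd22*, at 16.94 CPM in KO MPEC replicate 1, shares 479 with *Gm29439* on the opposite strand (0 to 5 counts).

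The loss of Rroid2 was compared in each population with edgeR's quasi-likelihood test over all 12 libraries, with Benjamini-Hochberg adjustment over 14460 genes and a call at an adjusted p under 0.05. All 34 genes passed the filter on low counts, 3 of them (*Cd40*, *Fcrl5* and *Siglecg*) only through WT SLEC day 14, since they reached 0.844 CPM in fewer than 2 other libraries.

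On day 14, KO SLEC had less of every one of the 34 genes than WT SLEC. *Csf1r* fell from 9.906 ± 3.27 to 0.5097 ± 0.1378 CPM, *Cxcr5* from 31.89 ± 20.85 to 0.1374 ± 0.1943 CPM, *Ebf1* from 34.15 ± 29.03 to 0.1518 ± 0.2146 CPM and *Plcg2* from 58.86 ± 25.05 to 20.32 ± 5.272 CPM (SD, n = 2 in each group). In the KO libraries *Cxcr5* had 0 and 2 counts, *Ebf1* 3 and 0 and *Fcrla* 1 and 2. The sizes of such changes, here and below, are therefore uncertain. Of the 34 genes, 17 were called, all lower in KO, and 0.539% of all tested genes were called in either direction (0.47% lower, 0.0692% higher). Without *Cd40*, *Fcrl5* and *Siglecg*, tested only because WT SLEC day 14 was high, 14 of 31 were called. Both KO libraries were below both WT libraries for all 34, against 25.7% of the tested genes, and the median log2 change was -5.67 against -0.0203 over all tested genes. All 34 had an unadjusted p under 0.05. The non-overlap, the median and the unadjusted p-values include *Cd40*, *Fcrl5* and *Siglecg*, and for these the filter already required a high WT SLEC day 14.

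By role, 6 of 7 myeloid genes, 6 of 8 surface receptors, 3 of 6 signalling genes and 2 of 3 transcription genes were called lower, and 0 of the 5 receptor and immunoglobulin genes and 0 of the 5 MHC class II genes. These tallies include *Cd40* and *Fcrl5* (surface receptors) and *Siglecg* (signalling), which passed the filter only through WT SLEC day 14. The called myeloid genes were *Csf1r* (log2 change -4.20 ± 0.686 SE, adjusted p = 0.0106), *Mpeg1* (-3.97 ± 0.693, 0.02), *Apoe* (-2.81 ± 0.479, 0.02), *Irf5* (-2.11 ± 0.413, 0.0308), *Sirpa* (-4.50 ± 0.93, 0.0328) and *Spi1* (-4.03 ± 0.927, 0.0496). *Lyz2*, at -3.36 ± 0.92, was not called (adjusted p = 0.13). Among the surface receptors, *Fcrl1* (-6.28 ± 1.14, 0.0224), *Cxcr5* (-7.98 ± 1.28, 0.0229), *Fcrla* (-6.05 ± 1.24, 0.0395) and *Fcer2a* (-5.62 ± 1.15, 0.0496) were called, as were *Cd40* and *Fcrl5* (0.0315 and 0.0224). The last pair had 0 counts in both KO libraries, and, with 3 counts over the group taken as the floor, they were at least 54.3-fold and at least 64.8-fold lower. *Blk*, also at 0 counts in both KO libraries and at least 171-fold lower by the same floor, was not called (adjusted p = 0.13).

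The called signalling genes were *Lyn* (-4.51 ± 0.781, 0.0395), *Plcg2* (-1.56 ± 0.319, 0.0441) and *Siglecg* (-6.42 ± 1.33, 0.0496), and the called transcription genes were *Pou2af1* (-5.06 ± 0.881, 0.0259) and *Ebf1* (-7.54 ± 1.4, 0.037). The genes with the highest level were not among them. *Cd74* differed by -6.22 ± 1.67 (adjusted p = 0.198), *Ighm* by -3.04 ± 0.556 (0.0719), *Igkc* by -5.73 ± 0.886 (0.0502) and *Cr2* by -6.45 ± 1.59 (0.152). For *Cd74* the WT libraries, at 211.6 and 818.4 CPM, lay 3.87-fold apart. The 14 T cell genes had 0 calls in this comparison (2 with an unadjusted p under 0.05) and a median log2 change of 0.12.

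These calls rested on few libraries, as did those over all tested genes, of which 78 were called. The count among the 34 was 0 without KO SLEC day 14 replicate 1 (20 of all genes called) and 0 without KO SLEC day 14 replicate 2 (2 of all genes). It was 3 without WT SLEC day 14 replicate 2 (18 of all genes) and 25 without WT SLEC day 14 replicate 1 (223 of all genes). Leaving out either KO SLEC day 7 library gave 6 (37 of all genes) and leaving out either KO MPEC library gave 4 (28 of all genes), although these libraries are in neither group compared; the cause was not tested. None of the 17 kept its call under all 12 omissions, and DESeq2 called 21 of the 34 genes, 9 of them among the 17, and 235 of all genes.

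In SLEC on day 7, 0 of the 34 genes were called by edgeR (0 with an unadjusted p under 0.05, and 0 by DESeq2), against 0.0277% of all tested genes. Both KO libraries were above both WT libraries for 4 of the 34 (11.2% of all tested genes) and below them for 0 (12.2%), and the median log2 change was -0.188. In MPEC on day 14, 0 were called by edgeR (2 with an unadjusted p under 0.05, *Igkc* and *Mpeg1*, and 0 by DESeq2), against 0.0138%. All 34 changes were negative there, with both KO libraries below both WT libraries for 8 (15.9% of all tested genes). WT MPEC replicate 1 held most of the WT counts of many of the 34 genes, such as 1186 of the *Cd74* counts against 53 in replicate 2.

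Whether the difference between KO and WT in SLEC changed between the days was tested as an interaction. *Cd40*, *Fcrl5* and *Siglecg*, tested only because WT SLEC day 14 was high, are included here. The sign was negative for all 34 genes, and 0 were called by edgeR, against 0.00692% of tested genes, with 18 at an unadjusted p under 0.05 and 7 called by DESeq2 (28 of all genes). *Apoe*, with the smallest p of the 34, had an interaction of -3.38 ± 0.678 (edgeR adjusted p = 0.248). The count was 5 without WT SLEC day 14 replicate 1 and 3 without WT SLEC day 7 replicate 2. For the interaction of genotype with population on day 14, 0 were called by edgeR (8 with an unadjusted p under 0.05, and 0 by DESeq2), against 0% of tested genes, and the count was 1 without WT SLEC day 14 replicate 1.

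Between days, WT SLEC had more of all 34 genes on day 14 than on day 7. Of these, 28 were called higher, against 9.94% of tested genes in either direction and 4.69% higher. Leaving aside the 3 genes that passed the filter only through WT SLEC day 14, 25 of 31 were called. Both day 14 libraries were above both day 7 libraries for all 34 (27.1% of tested genes, with 24.3% below). The median log2 change was 5.05, against 0.0119 over all tested genes. The non-overlap and the median include the 3 genes that passed the filter only through WT SLEC day 14. This comparison shares the WT SLEC day 14 libraries with the comparison of KO and WT on day 14, so the 2 results are not separate observations.

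All 8 surface receptors were called higher, from *Fcrla* at 4.68 ± 0.897 (adjusted p = 0.00316) to *Cr2* at 6.92 ± 1.56 (0.0371). So were 4 of 5 receptor genes, 5 of 6 signalling genes, 2 of 3 transcription genes, 3 of 5 MHC class II genes and 6 of 7 myeloid genes. Among the genes so counted, *Cd40*, *Fcrl5* (surface receptors) and *Siglecg* (signalling) passed the filter only through WT SLEC day 14. *Ighm* rose by 3.38 ± 0.553 (0.0102) and *Cd79a* by 5.56 ± 1.14 (0.0149). The called myeloid genes rose less, from *Apoe* at 1.90 ± 0.377 (0.00354) to *Mpeg1* at 2.70 ± 0.51 (0.00215). *Plcg2* at 0.88 ± 0.289 (0.0676), *Ighd* at 5.06 ± 1.25 (0.0506), *Pax5* at 5.31 ± 1.32 (0.0532), *H2-Ab1* at 4.75 ± 1.23 (0.065), *Cd74* at 5.34 ± 1.5 (0.0822) and *Lyz2* at 2.49 ± 0.724 (0.0502) were not called. The count was 12 without WT SLEC day 7 replicate 1 (1563 of all genes called, against 1437), 15 without WT SLEC day 7 replicate 2 (903) and 18 without WT SLEC day 14 replicate 2 (417). *Csf1r*, *Cxcr5*, *Ebf1*, *Fcrl1*, *Igkc*, *Mpeg1* and *Pou2af1* were called under all 12 omissions; *Cd40* and *Fcrl5* were too, but had passed the filter only through the group where they were high.

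In KO SLEC the same comparison of days gave 0 calls by edgeR, although 17.2% of all tested genes were called (7.7% higher, 9.5% lower). *Apoe* alone had an unadjusted p under 0.05, at -1.48 ± 0.573 (adjusted p = 0.0851), and DESeq2 called 0. The day 14 libraries were below the day 7 libraries for 11 genes (29% of tested genes) and overlapped with them for 23.

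In WT cells on day 14, all 34 genes were lower in MPEC than in SLEC, and 22 were called, against 7.96% of tested genes in either direction (4.3% lower, 3.66% higher). Without the 3 genes that passed the filter only through WT SLEC day 14, 19 of 31 were called. Both MPEC libraries were below both SLEC libraries for 33 (29.1% of tested genes), and the median log2 change was -3.34, against -0.00492 over all tested genes. The 33 and the median include those 3 genes. All 7 myeloid genes were called, with *Csf1r* at -3.76 ± 0.578 (adjusted p = 0.000367) and *Irf5* at -2.44 ± 0.399 (0.000911) first. The surface receptors had 7 of 8 called, from *Cxcr5* at -2.09 ± 0.555 (0.0388) to *Fcrl5* at -5.01 ± 0.878 (0.0016). The receptor genes had 3 of 5, the signalling genes 3 of 6, the transcription genes 2 of 3 and the MHC class II genes 0 of 5 called. *Cd40* and *Fcrl5* are counted among these surface receptors and *Siglecg* among the signalling genes, although they passed the filter only through WT SLEC day 14.

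*Ighm* had the smallest difference of the set, -0.90 ± 0.483, and was not called (adjusted p = 0.354). *Ralgps2* at -1.06 ± 0.424 (0.179) and *Cd22* at -2.51 ± 0.843 (0.148) were not called either. The count was 4 without WT SLEC day 14 replicate 2 (428 of all genes called, against 1151) and 5 without WT MPEC replicate 2 (277), and DESeq2 called 9, all 9 among the 22, and 1070 of all genes. *Csf1r* and *Irf5* were called under all 12 omissions, as was *Fcrl5*, one of the 3 genes that passed the filter only through WT SLEC day 14.

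In KO cells the comparison of MPEC with SLEC gave 0 calls by edgeR, against 5.11% of tested genes (2.9% higher, 2.21% lower). The unadjusted p was under 0.05 for *Ighm* and *Cxcr5*. *Ighm* was at 94.04 and 112.2 CPM in KO MPEC and at 38.95 and 15.67 CPM in KO SLEC, a log2 difference of 1.88 ± 0.558 (edgeR adjusted p = 0.131). DESeq2 called it, and only it, with an adjusted p of 0.0179. Without both WT SLEC day 14 libraries, an alternative added after seeing the data, edgeR also called it (adjusted p = 0.0192). *Cxcr5* had 60 and 36 counts in KO MPEC against 0 and 2 in KO SLEC, with a log2 difference of 5.23 ± 1.99 (edgeR adjusted p = 0.191). It was called with no filter on low counts (adjusted p = 0.000323), and its adjusted p under the other alternatives was 0.0581 to 0.602. Both KO MPEC libraries were above both KO SLEC libraries for 9 of the 34 genes, a share near the 23.5% of tested genes. They were below them for 3, a smaller share than the 23.2% of tested genes.

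**Figure D5:**
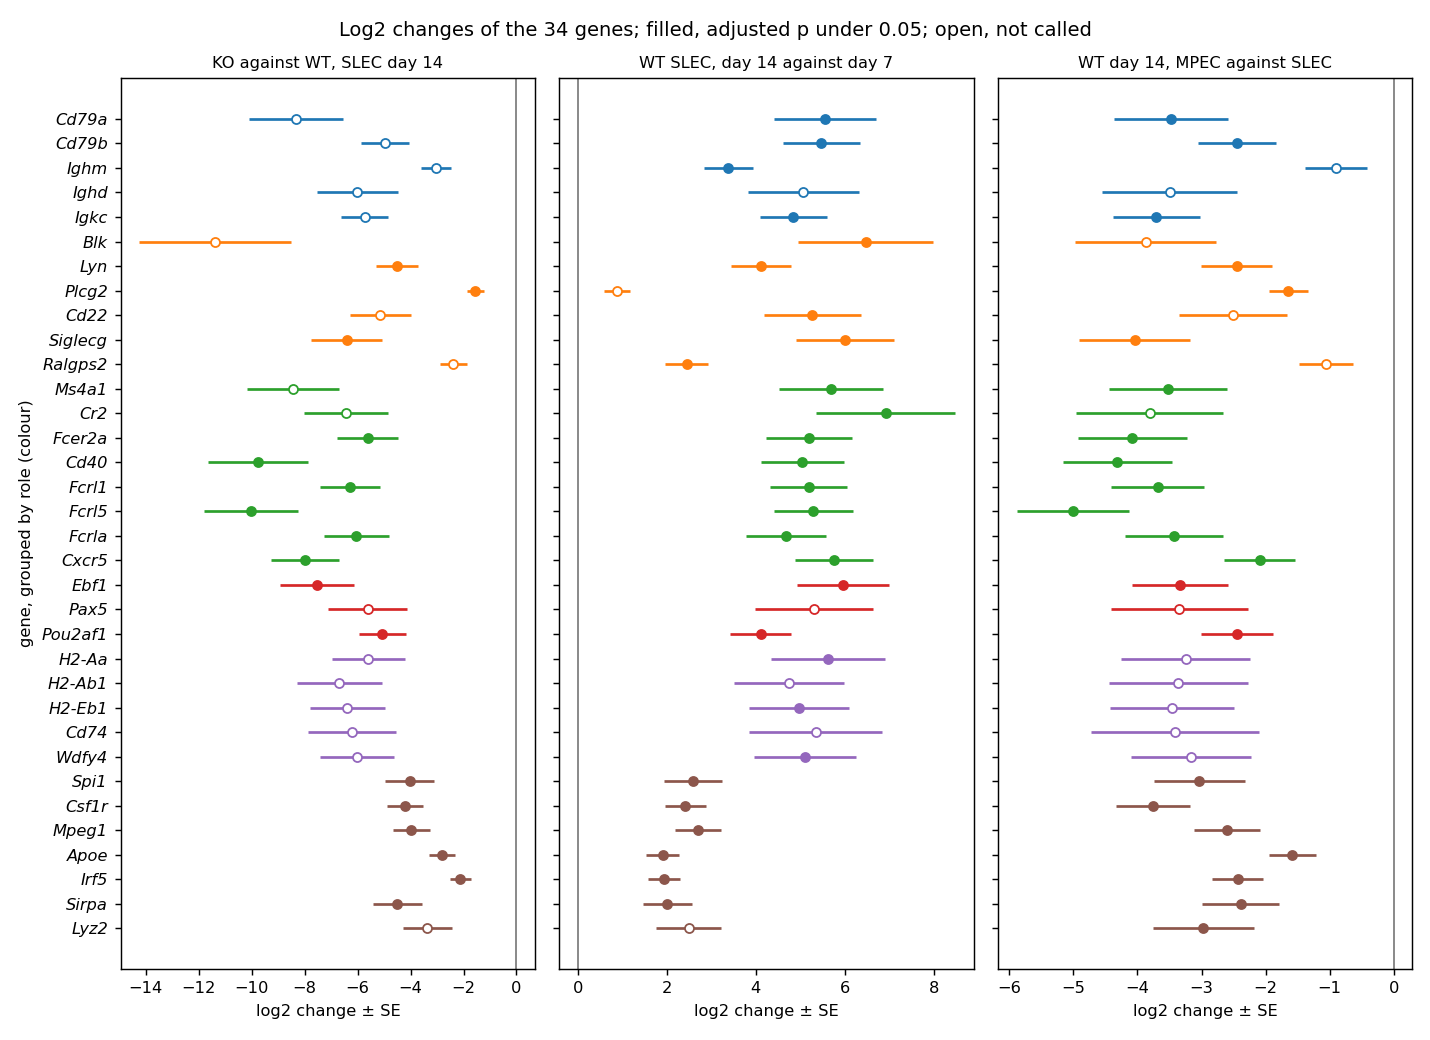
Log2 change with its standard error (bar) of each of the 34 genes in the 3 comparisons that hold WT SLEC day 14, coloured by role, with filled points for an adjusted p under 0.05. The points are all negative for KO against WT (17 filled) and for MPEC against SLEC (22 filled), and all positive for day 14 against day 7 (28 filled); the fitted values of *Blk*, *Cd40* and *Fcrl5* in the first panel come from 0 counts in KO and are no measured sizes.

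Across the 9 comparisons, 30 of the 34 genes were called at least once, and 16 in all 3 comparisons with WT SLEC day 14. Both counts include *Cd40*, *Fcrl5* and *Siglecg*, which passed the filter only through WT SLEC day 14. *Ighd*, *Pax5*, *H2-Ab1* and *Cd74* were called in none. In the 4 comparisons without WT SLEC day 14 edgeR called none of the 34.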

How the data were processed

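The authors deposited a table of raw counts for 55421 genes in 12 libraries. The submitters' processing notes name bcl2fastq, STAR 2.6.1a and the build GRCm38. Which program and annotation made the counts, and whether strand was used, is not stated in any source used here. Per the labels' protocols, RNA from cells sorted into lysis buffer was made into stranded SMART-Seq libraries. Columns were matched to samples by the labels.

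The deposited counts were fitted with edgeR 4.0.16 (R 4.3.3): filterByExpr (14460 genes), TMM factors, and a robust quasi-likelihood model with 1 coefficient per group over all 12 libraries (6 residual degrees of freedom, median prior 11.9). The 9 comparisons were tested two-sided with Benjamini-Hochberg adjustment. The script was tested on simulated data. Alternatives were DESeq2 1.42.0, RLE factors, no filter, a replicate block and leaving out each library. Positions and exon lengths come from GENCODE M21. Of the other lists, March1 was not matched by symbol.

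The 34 genes and all lists were chosen with earlier results of these data known. Named were genes called in any comparison, the highest gene of each role and, of each other list, the 3 highest genes and up to 4 called genes per comparison, of which a selection is printed.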

Additional observations from a re-analysis of the deposited data

How the results depend on the processing

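Alternatives for single genes were run for the 34 genes in the 3 comparisons with WT SLEC day 14 and for 4 genes in MPEC against SLEC in KO. None of these turned the sign of a change. Of these values 1312 kept their side of the threshold, 323 lost a call and 65 gained one. With DESeq2, 9 of the 34 genes were called for MPEC against SLEC in WT (1070 of all genes) and 1 for the same comparison in KO (1050). For the interaction of genotype and day it called 7 (28 of all genes). With no filter on low counts the calls were 1 for MPEC against SLEC in KO (991 of all genes), 10 for the interaction with day (109) and 3 for that with population (23). Without both WT SLEC day 14 libraries there was 1 call for MPEC against SLEC in KO (654 of all genes). RLE factors gave 13 calls for KO against WT SLEC on day 14 (67 of all genes). Leaving out 1 library at a time gave 0 to 25 calls for KO against WT SLEC on day 14, 12 to 30 for day 14 against day 7 in WT, 4 to 24 for MPEC against SLEC in WT and 0 to 1 in KO, 0 to 5 for the interaction with day and 0 to 1 for that with population; the lone sample of a group is then assumed to vary like the others.

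Replicate numbers did not pair the samples: over 15 pairs of groups the deviations of same-numbered libraries correlated at -0.133 to 0.117, with 2 pairs over 0.1. With the replicate block 19, 25 and 20 of the 34 genes were called in the 3 comparisons with WT SLEC day 14, against 17, 28 and 22, and 0 in the others. Over all genes the block gave 130, 1391 and 1143 calls in those 3, against 78, 1437 and 1151. The summed level of the 34 genes in replicate 2 over replicate 1 of WT SLEC day 14 was 3.24, 3.41 per total counts and 3.75 per T cell counts, and WT SLEC day 14 replicate 1 was 2.09 times WT MPEC replicate 1, 2.19 per total counts. A count of 3 is 0.19 to 0.412 CPM, and 8 to 20 genes of the set were at or under it in each of 7 libraries, where differences between libraries were not detectable at this depth.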

Other observations

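Genes of the same cells outside the 34 were read from lists chosen in the same way. Of 31 other B cell genes 29 were tested, and 4 were called lower in KO SLEC than in WT SLEC on day 14 (*Iglc1*, *Iglc2* and *Iglc3*, lambda light chains, and *Ly86*, a partner of CD180), 21 higher in WT SLEC on day 14 than on day 7 and 12 lower in WT MPEC than in WT SLEC. *Ciita*, the master regulator of class II genes and part of this list, was at 15.31 and 66.76 CPM in WT SLEC day 14. It was chosen for naming after its values were seen. *Pik3ap1*, *Cd37* and *Zfp318*, the highest of the list, were at 75.28, 97.14 and 37.01 CPM or more in every library, so the list's sum is not a measure of B cell RNA alone. *Zfp318* was called higher on day 14 than on day 7 in WT (log2 1.61 ± 0.199, edgeR adjusted p = 7.6e-05) and in KO SLEC (1.25 ± 0.205, 0.000522), and so was *Bcl6*, a repressor of follicular T and B cells, at 1.73 ± 0.274 (0.000722) and 2.02 ± 0.303 (0.000265).

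Of 11 other genes of the MHC class II pathway, *H2-DMb1*, a chain of the peptide exchanger, was called lower in KO SLEC on day 14 and in WT MPEC, and 5 were called higher with the day in WT SLEC. *Rfx5* and *Rfxap*, whose products bind class II promoters, were at 26.22 CPM or more in every library. Of 20 tested genes of macrophages and monocytes, 0 were called between KO and WT SLEC on day 14 (15 with an unadjusted p under 0.05), 6 were higher and 1 lower with the day in WT SLEC, and 7 were lower in WT MPEC. *Cybb*, the phagocyte oxidase, was at 24.88 and 64.8 CPM in WT SLEC day 14 and *Adgre1*, which encodes F4/80, at 3.091 and 2.215 CPM. *Tyrobp*, an adaptor of myeloid and NK cells, was called in KO SLEC as well, higher on day 14 than on day 7 (2.76 ± 0.905, edgeR adjusted p = 0.0403). The highest genes of that list, *Cd68* and *Axl*, did not peak in WT SLEC day 14.

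Of 6 marginal zone B cell genes, 1 (*Pld4*) was called lower in KO SLEC on day 14. The sum of that list was carried by *Dtx1*, at 129.3 CPM or more in every library. Germinal centre genes, of which *S1pr2* and *Mybl1* were tested, had 0 calls between KO and WT on day 14 by edgeR (0 with an unadjusted p under 0.05). Of the tested genes, 0 of 6 plasma cell, 0 of 5 neutrophil, 0 of 7 erythroid, 0 of 4 platelet, 0 of 2 dendritic cell and 0 of 3 helper T cell genes were called in that comparison, where 4, 4, 0, 0, 0 and 0 had an unadjusted p under 0.05. Erythroid genes had their largest sum in replicate 1 of KO SLEC day 7, 101.2 CPM against 26.64 and 8.606 CPM in WT SLEC day 14, with *Slc4a1*, the band 3 anion exchanger, at 27.3 CPM and *Hbb-bs*, a beta globin, at 23.73 CPM. *Itga2b*, a platelet integrin, was at 1.884 to 6.527 CPM and *Cst3*, cystatin C, at 26.59 to 55.55 CPM in every library.

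The OT-I receptor uses known variable segments, and reads of other beta segments (any but *Trbv12-1* and *Trbv12-2*) were counted in each library. They made up 0.265% and 0.511% of *Trbv* counts in WT SLEC day 14 (exact 95% intervals 0.155 to 0.424 and 0.34 to 0.738) and 0.0585% to 2.72% elsewhere. The highest share, 98 of 3606 counts, was in WT MPEC replicate 2, the library of that group with fewer B cell counts. Alpha segments were counted too, and any but those of the *Trav14* family made up 87.5% and 75% of *Trav* counts in WT SLEC day 14 and 17.6% to 100% elsewhere. These shares rest on 2 to 60 counts per library, and no difference between libraries was read from them.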
